A study of Sus scrofa with 2 samples.

Results

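Macrophages of the ovary carry surface markers and receptors that sense microbial and damaged-cell products, and 5 genes of this group were examined here in pig ovary: the macrophage markers CD14, CD163 and AIF1 and the innate sensing receptors TLR2 and TLR4. The genes were taken by name, and their probes were those whose RefSeq transcript accession belongs to one of them in the pig annotation Sscrofa11.1. This gave 13 probes, which were 4 for CD163, 4 for TLR4, 2 for CD14, 2 for AIF1 and 1 for TLR2, out of 5577 probes and 2459 genes that could be named in this way among 43597 probes in all. Each probe was printed once on each array.

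RNA came from ovarian tissue from which the corpora lutea had been excised, taken at cycle day 15, when corpora lutea regress. One group was conventional pigs, which the methods name as Yorkshire sows, and the other was minipigs, named as Midget minipigs; both were females 10 months old. The RNA of each breed was labelled with Cy3 and hybridised to 1 single-colour porcine Agilent array, so there were 2 arrays in all, and neither the labels nor the methods say how many of the 5 animals per breed an array represents. With 1 array per breed no difference has a replicate check, no test between the breeds was run, and the number of arrays limits the precision.

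Macrophages live in the ovarian stroma and theca, enter atretic follicles and regressing corpora lutea, and clear dying cells there. CD14 is a membrane-anchored co-receptor that takes bacterial lipopolysaccharide (LPS) from the carrier protein LBP and passes it to the complex of TLR4 with MD-2, the product of LY96. CD163 is the scavenger receptor for haemoglobin bound to haptoglobin. AIF1, also known as IBA1, is a calcium- and actin-binding protein of macrophages and microglia. TLR2 pairs with TLR1 or TLR6 to sense bacterial lipoproteins. Signals of these receptors run through the adaptor MYD88 to NF-kappaB and on to cytokines and chemokines.

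The values are processed intensities, in arbitrary units, that the scanner software corrected for background. For comparison between the arrays the log2 intensity minus the 75th percentile of its array was taken; that percentile was an intensity of 494 in the minipig and 513 in the conventional pig. A log2 difference above zero means a brighter signal on the conventional pig array than on the minipig array. The breed labels carry a conflict: the authors' table of log2 values holds the same measurements with the breeds exchanged, and for the 5613 probes printed once its minipig column equals the conventional pig scanner file minus a constant, to within 7.46e-07. The labels of the scanner files are used throughout, and each direction given below turns over if the labels of that table are right. No spot was saturated, and 88.1% of the probes in the minipig and 85.2% in the conventional pig were well above background.

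All 13 probes of the 5 genes were well above background on both arrays, so every value is a measured difference and none is a bound. CD14 and AIF1 were higher on the conventional pig array, with median log2 differences over their probes of 1.04 (2.06-fold) and 0.74 (1.66-fold). CD163, TLR2 and TLR4 lay close to zero, at -0.25, 0.17 and 0.00. The 2 markers that were higher and the 1 that was not are all macrophage markers, so the markers did not move as 1 block. In bulk tissue, fewer cells of a type and less RNA per cell cannot be told apart.

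**Figure D1:**
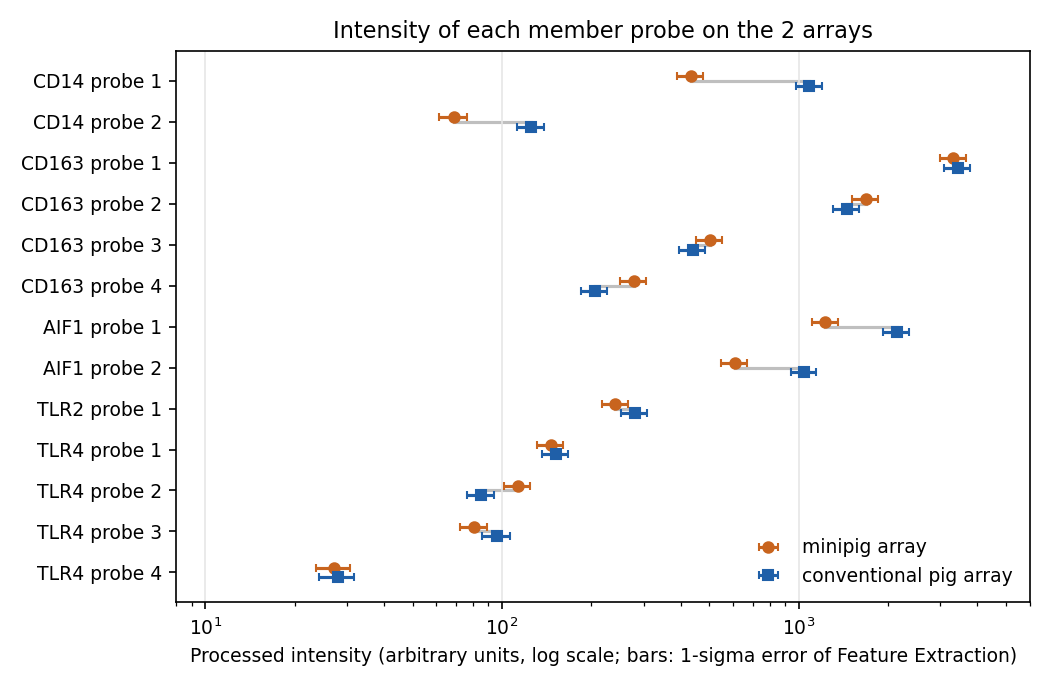
Processed intensity (arbitrary units, log scale) of the 13 probes of the 5 genes on the minipig array (circles) and the conventional pig array (squares), with bars for the 1-sigma error given by the scanner software. Probes are numbered from the brightest on the minipig array. The circles and squares are well apart for CD14 and AIF1, and their bars overlap for TLR2, for 3 of the CD163 probes and for 3 of the TLR4 probes.

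The brighter CD14 probe had an intensity of 432 ± 43.3 in the minipig and 1084 ± 108 in the conventional pig, where the error is the 1-sigma error that the scanner software attaches to a spot. The dimmer CD14 probe read 68.8 ± 7.34 and 126 ± 12.8 in the same order. Both probes were therefore brighter on the conventional pig array by more than their errors. After scaling, their log2 differences were 1.27 ± 0.20 and 0.81 ± 0.21, so that the brighter probe was past 2-fold and the dimmer one was not. Repeated spots of 42 other probes put the SD of a single-spot difference at 0.25, and the CD14 median was 4.13 times that SD. With normexp background correction the CD14 median was 0.80, under 2-fold. This spread covers spots on these 2 arrays and not animals.

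For AIF1 the brighter probe had an intensity of 1229 ± 123 in the minipig and 2142 ± 214 in the conventional pig. The other AIF1 probe read 609 ± 61.0 and 1042 ± 104. Their log2 differences, 0.75 ± 0.20 and 0.72 ± 0.20, were nearly the same, 0.03 apart. Both exceed 2 SD of repeated spots (0.51) and neither reaches 2-fold. In the pig annotation AIF1 lies between LST1 and NCR3, in the class III region of the major histocompatibility complex.

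CD163 was the only one of the 5 genes with all of several probes on the minipig side. Its brightest probe, at 3317 ± 332 in the minipig and 3428 ± 343 in the conventional pig, had a log2 difference of -0.01 ± 0.20, which is none beyond the error. The next probes read 1678 ± 168 against 1451 ± 145 and 501 ± 50.2 against 439 ± 44.0, with log2 differences of -0.26 and -0.25. The dimmest CD163 probe read 279 ± 28.0 in the minipig and 206 ± 20.8 in the conventional pig, a log2 difference of -0.49 ± 0.21. The direction of the gene thus rests on its 3 dimmer probes, and none of the 4 exceeded 2 SD of repeated spots. The highest CD163 probe lay below the lowest probe of CD14 and the lowest of AIF1.

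The single TLR2 probe read 241 ± 24.3 in the minipig and 281 ± 28.2 in the conventional pig. Its log2 difference of 0.17 ± 0.21 was within 1 SD of repeated spots. TLR2 was therefore not distinguishable between the 2 arrays, and no second probe of it could be compared.

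TLR4 lay near or below the median intensity of all spots (127 in the minipig, 119 in the conventional pig), and its 4 probes disagreed in direction. The brightest read 146 ± 14.8 in the minipig and 152 ± 15.4 in the conventional pig, a log2 difference of 0.00 ± 0.21. The second read 113 ± 11.5 and 85.3 ± 8.92 (-0.46 ± 0.21). The third read 80.8 ± 8.48 and 95.9 ± 10.1 (0.20 ± 0.21), and the last 27.1 ± 3.56 and 27.9 ± 3.85 (-0.01 ± 0.27). Only the second probe was past 1 SD of repeated spots, and the probes of TLR4 spanned 0.65 on the log2 scale. That is the widest span among the 4 genes with several probes, against 0.49 for CD163, 0.46 for CD14 and 0.03 for AIF1.

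**Figure D2:**
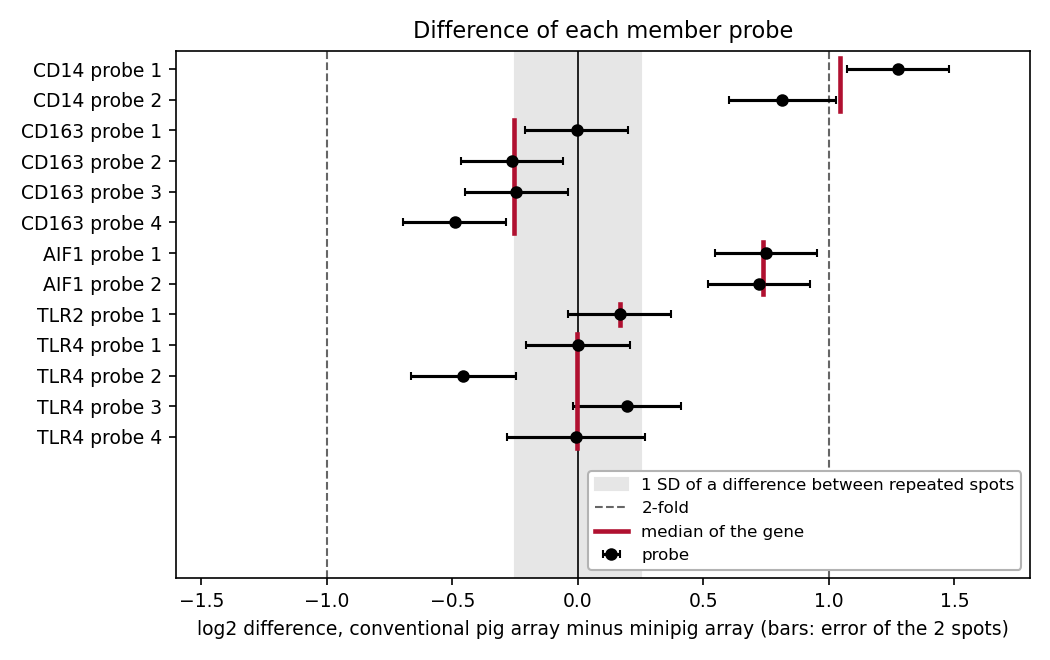
Log2 difference (conventional pig array minus minipig array) of each probe, with bars for the combined error of its 2 spots, the gene median as a red line, 1 SD of a difference between repeated spots as a grey band and 2-fold as dashed lines. The CD14 and AIF1 probes lie between 0.72 and 1.27, outside the band, while the CD163, TLR2 and TLR4 probes lie between -0.49 and 0.20.

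Differences of this size were common on these arrays. Among the 2363 named genes that had a value, 11.7% differed by 2-fold or more toward the conventional pig array and 7.96% toward the minipig array, and of the 5 genes 1 (CD14) and 0 did. At 1.5-fold the shares of all named genes were 23.7% and 16.2%, against 2 and 0 of the 5 genes. Among single probes, 7.48% and 8.94% differed by 2-fold or more in these directions, against 1 and 0 of the 13. At 1.5-fold the shares of single probes were 15.5% and 21.4%, against 4 and 0 of the 13, and the 4 were those of CD14 and AIF1. Counts over 5 genes are too few to be read apart from this background. In the signed order from the minipig side to the conventional pig side, CD14 stood above 88.7% of the named genes and AIF1 above 81.5%, CD163 above 30.6% and TLR4 above 47.3%. If the labels are exchanged, CD14 stands above 11.3%. By size alone, whatever the direction, the difference of CD14 exceeded that of 81.4% of the named genes and that of AIF1 69.2%. Of 1264 named genes with several probes, 18.2% had every probe past 1.5-fold toward the conventional pig array, as CD14 and AIF1 did.

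**Figure D3:**
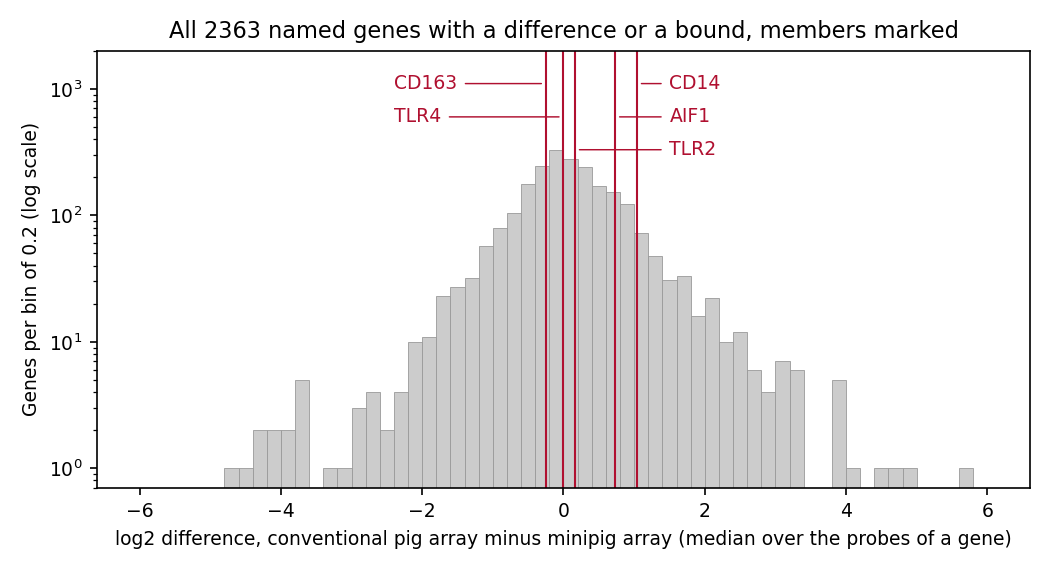
Number of named genes (log scale) in bins of 0.2 of the log2 difference, conventional pig array minus minipig array, for the 2363 genes with a difference or a bound. Red lines mark the 5 genes, all of which lie inside the bulk of the distribution, with CD14 the farthest out at 1.04.

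The partners of TLR4 in LPS recognition were taken from a list of 17 other toll-like receptors and co-receptors, of which 15 had a value. LBP, the serum protein that carries LPS to CD14, read 91.8 in the minipig and 233 in the conventional pig from 1 probe, a log2 difference of 1.29 (2.45-fold). LY96, which encodes the LPS-binding subunit MD-2 of the TLR4 complex, had 4 probes, and the brightest read 1200 in the minipig and 2442 in the conventional pig. All 4 LY96 probes were brighter in the conventional pig, from 1.74-fold to 1.99-fold, with a median log2 difference of 0.89 (1.85-fold). LBP, CD14 and LY96 thus lay on the conventional pig side, each by more than 2 SD of repeated spots, while TLR4 itself, at 0.00, did not. Differences past 2 SD (0.51) toward that array were common, since the 75th percentile of all named genes was 0.55. BPI, a neutrophil protein that also binds LPS, had a log2 difference of -0.05 from 2 probes.

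CD180 (RP105), a receptor related to TLR4 that signals mainly in B cells and macrophages, went the other way. Its probe read 205 in the minipig and 65.5 in the conventional pig, a log2 difference of -1.70 (3.25-fold higher on the minipig array). LY86, which encodes the MD-1 protein that pairs with CD180, was dim on both arrays, at 96.8 and 86.8, with a log2 difference of -0.21, within 1 SD of repeated spots. In this setting CD180 was the only gene of the 15 past 2-fold toward the minipig array, and LBP the only one past 2-fold toward the conventional pig array. Among all named genes, 7.96% and 11.7% were past 2-fold in these directions, so 1 of 15 each way is no more than this background. CD180 stayed past 2-fold under every alternative tried, from -1.31 to -1.70, but LBP fell to 0.94 with normexp background correction, which left 0 genes past 2-fold toward the conventional pig array, and median centring gave 3. Each of these 2 genes rests on 1 probe.

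The partners of TLR2 were split. TLR1, which pairs with TLR2 for triacylated lipoproteins, read 556 in the minipig and 461 in the conventional pig (log2 difference -0.32). TLR6, its partner for diacylated lipoproteins, was dim at 21.3 and 33.3 (0.59). TLR10, of the same subfamily, had a log2 difference of -0.63, at 144 in the minipig and 96.0 in the conventional pig. TLR1, TLR6 and TLR10 are close paralogs, and binding of one another's transcripts by their single probes was not tested, so these values are uncertain. CD36, a scavenger receptor that assists TLR2, had a median of 0.43, but 2 of its 4 probes were at 0.83 and 0.91 and the others at 0.03 and -0.08.

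Among the receptors for nucleic acids in endosomes, both probes of TLR3, the sensor of double-stranded RNA, were lower on the conventional pig array, at -0.44 and -0.45. TLR9, the sensor of unmethylated CpG DNA, was at -0.38. The sensors of single-stranded RNA lay on the other side, TLR7 at 0.91 and TLR8 at 0.13, although TLR7 was close to background with intensities of 15.9 and 31.0. The chaperones that fold toll-like receptors also differed in sign: the 8 probes of HSP90B1 were all higher on the conventional pig array, with a median of 0.36, and the probe of CNPY3 was at -0.49. Over the 15 genes the median log2 difference was -0.05, beside 0.04 for all named genes, with 7 above zero and 8 below.

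**Figure D4:**
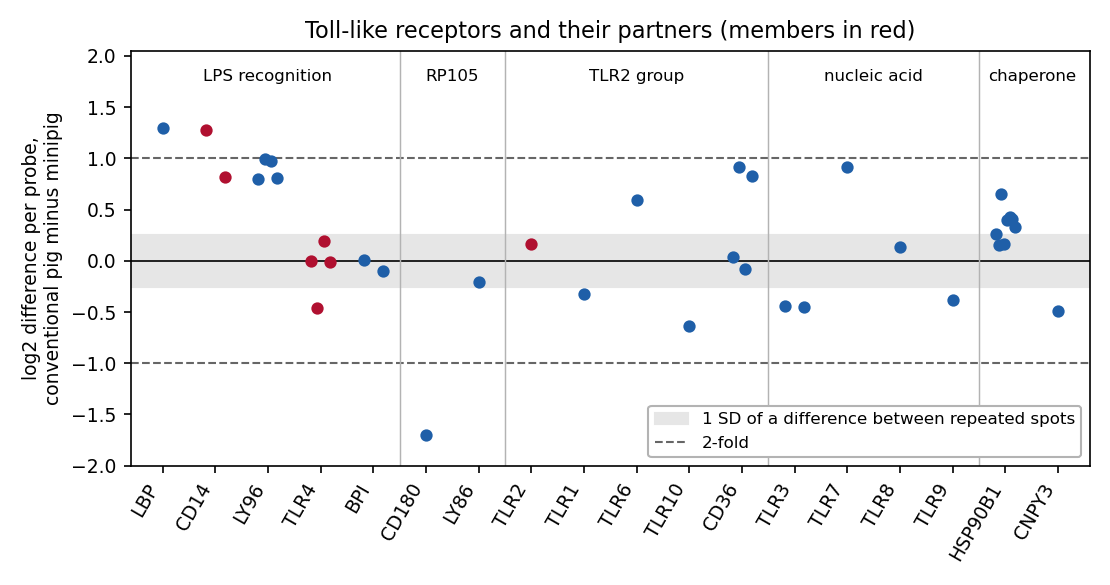
Log2 difference per probe (conventional pig minus minipig) for toll-like receptors, their co-receptors and chaperones, ordered by role, with CD14, TLR4 and TLR2 in red, 1 SD of repeated spots as a grey band and 2-fold as dashed lines. LBP, CD14 and LY96 lie between 0.80 and 1.29, the TLR4 probes between -0.46 and 0.20, and CD180 at -1.70.

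Signaling genes downstream of the receptors differed little. Of 46 listed, 17 had a value, so the list describes only those genes. The median log2 difference was 0.20. Past 2-fold were 1 gene toward the conventional pig array and 0 toward the minipig array, beside 11.7% and 7.96% of all named genes. The 1 gene was CASP8, an apoptosis-initiating caspase, with a median of 1.12, although its 3 probes ran from 0.09 to 1.17. MYD88, the adaptor that most of these receptors share, read 47.4 in the minipig and 83.0 in the conventional pig (0.75). It was named after its value was seen. NFKBIA, the inhibitor of NF-kappaB and the brightest of the list, had both probes at -0.16.

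Sensors outside the toll-like family were also near zero, with a median of -0.04 over the 17 genes with a value of 40 listed. None of the 17 was past 2-fold toward the conventional pig array and 1 was toward the minipig array, beside 11.7% and 7.96% of all named genes. CLEC7A (dectin-1), the beta-glucan receptor of myeloid cells, was 2.11-fold higher on the minipig array, at 68.2 against 33.4 (-1.08). It was under 2-fold with each other normalization, at -0.36 with normexp background correction and between -0.84 and -0.93 with median centring, quantile and loess. EIF2AK2, the double-stranded RNA-activated kinase, was the brightest of those with every probe well above background on both arrays and had a log2 difference of 0.38. PGLYRP2, a peptidoglycan-cleaving enzyme, had a brighter probe, at 1218 in the minipig and 1361 in the conventional pig (0.11), and a dim one with only a bound. MBL1 and CLEC5A were in neither breed well above background.

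The products of innate sensing, by contrast, were spread widely. Of 29 listed cytokines, chemokines and adhesion molecules, 24 had a value, with a median of -0.16. Past 2-fold were 3 toward the conventional pig array and 7 toward the minipig array, beside 11.7% and 7.96% of all named genes. The count toward the conventional pig array was near its share. With normexp background correction these counts were 2 and 3, beside 8.76% and 4.15% of all named genes. CCL2, the chemokine that draws monocytes, read 1005 and 3788 with its brighter probe, and its median log2 difference was 1.81 (3.52-fold). ICAM1, an adhesion molecule for leukocytes, was at 1.70, and the 3 probes of IL6 ran from 1.20 to 2.01.

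On the minipig side, IL1B read 372 in the minipig and 50.4 in the conventional pig, a log2 difference of -2.94 (7.67-fold). The chemokine CCL4 read 450 and 83.3 (-2.49). PTGS2, the inducible cyclooxygenase, was at -1.75, the median of 1 measured probe and of a bound from a probe that in the conventional pig was not well above background. TNF, the brightest of the list, had 2 probes of opposite sign, at -0.19 and 0.69. Genes that the same receptors can induce thus lay far apart in both directions. IL12A, IL23A and IFNB1 were in neither breed well above background.

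Of 60 other macrophage and monocyte genes, 35 had a value, 58.3% of the list. Their median log2 difference was 0.14, beside 0.04 for all named genes. Past 1.5-fold were 7 toward the conventional pig array and 4 toward the minipig array, beside 23.7% and 16.2% of all named genes. At 2-fold there were 3 and 2. The 2-fold counts were 8.57% and 5.71% of the 35 genes, beside 11.7% and 7.96% of all named genes. The order of these shares was not stable: with normexp background correction 11.4% of the list and 8.76% of named genes were past 2-fold toward the conventional pig array, and with quantile normalization 8.57% and 7.31% toward the minipig array. CCR2, the receptor for CCL2 on monocytes, differed most toward the conventional pig array, at 385 on the minipig array and 1880 there (2.24, 4.71-fold, 1 probe). CTSD, a lysosomal protease, had both probes past 2-fold and a median of 1.30, and CD83, a marker of activated antigen-presenting cells, was at 1.11. CHI3L1, a chitinase-like protein, was at -1.75 from 2 probes. SIGLEC1 (sialoadhesin), a receptor of resident macrophages, read 29.5 in the minipig and was in the conventional pig not well above background, which made it at least 2.65-fold brighter in the minipig RNA.

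The other genes of the list ran to both sides of zero. TYROBP, a signaling adaptor of myeloid receptors, had both probes at 0.09 to 0.10, ITGB2, the common chain of leukocyte integrins, was at 0.14, and FOLR2, a receptor of tissue macrophages, was at -0.26. C1QA, a complement chain made by macrophages, was at 0.29 and FCGR3A, an Fc receptor, at 0.20. Farther out, LGALS3 (galectin-3) had a median of 0.87 over 7 probes, CSTB, an inhibitor of cathepsins, was 1.99-fold brighter in the conventional pig, and CD86, a costimulatory ligand, was at 0.84. HMOX1, which degrades the haem taken up through CD163, was at -0.81 and SPP1 (osteopontin) at -0.77. These genes were chosen after their values were seen. CTSB, the brightest gene of the list, had a median of 0.25.

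Markers of other cells differed between the arrays beside CD14 and AIF1. To describe a marker list as a whole, the brightest probe of each of its genes was expressed relative to the 75th percentile of its array and summed. The luteal and steroidogenic list, 11 of 12 genes with a value, summed to 382 in the minipig and 1244 in the conventional pig. Its median log2 difference was 2.46. Past 2-fold toward the conventional pig array were 6 genes, beside 11.7% of all named genes. They were led by SCP2 (4.52), HSD3B1 (3.11) and STAR (3.07). FDX1 (0.63), RLN2 (0.45), OXT (0.33), NR5A1 (0.02) and PRLR (-0.55) did not reach 2-fold. The endothelial list, 10 of 17 genes, summed to 14.3 and 23.9 with a median of 0.51. SELP (1.64) and EDN1 (1.60) were past 2-fold toward the conventional pig array, as were 11.7% of all named genes. The granulosa and theca list, 10 of 14 genes, summed to 153 and 48.0 with a median of -1.76. Past 2-fold toward the minipig array were 7 genes, beside 7.96% of all named genes. They were led by INSL3 (-3.76), FSHR (-3.63) and HSD17B1 (-2.96). CYP19A1 (0.09), FST (-0.08) and LHCGR (-0.62) did not reach 2-fold. In the same order, the 5 genes examined summed to 10.9 and 13.8 and the other macrophage genes to 210 and 265. The rise in that macrophage sum rests on its bright genes CTSB, CTSD and CSTB, while its list median was 0.14. The part of these other cells in the CD14 and AIF1 differences was not tested.

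The remaining lists are given by their medians and sums in the same order. Of 29 markers of neutrophils, mast cells and dendritic cells, 13 had a value, summing to 25.6 and 15.9 with a median of -0.04. S100A12 (1.52), S100A8 (1.30) and MMP9 (1.29) were past 2-fold on the conventional pig side, S100A9, the partner of S100A8, was at -0.32, and KIT, which oocytes also express, was at -2.04. KIT makes up most of the minipig sum of this list, so the lower sum in the conventional pig rests on that gene. The 15 of 27 T and NK cell markers with a value had a median of 0.08 and sums of 6.09 and 6.35, with CD247 at 1.23, CD3G at -1.31 as the midpoint of a measured probe at -0.42 and a bound at -2.20, GZMB at -0.70, and CD4 not well above background on either array. Of 15 B and plasma cell markers only CD79A (-0.11) and XBP1 (1.12) had a value, with sums of 30.8 and 68.1 that are nearly all XBP1, a gene of secretory cells in general. Smooth muscle and fibroblast markers, 5 of 18, had a median of -0.36 and sums of 283 and 214. DES (3.99-fold higher in the minipig), CNN1 (-1.32) and DCN (-0.36) lay on the minipig side. ACTA2 (0.10) and TPM2 (0.36) lay on the conventional pig side. The lower sum in the conventional pig rests mostly on DES. Oocyte markers, 6 of 12, had a median of -1.13 and sums of 4.41 and 1.84, with MOS (-1.75), ZP4 (-1.41) and ZP3 (-1.33) past 2-fold. Blood cell markers, 4 of 8, had a median of 0.09 and sums of 3.74 and 4.01, with PPBP at 1.83.

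**Figure D5:**
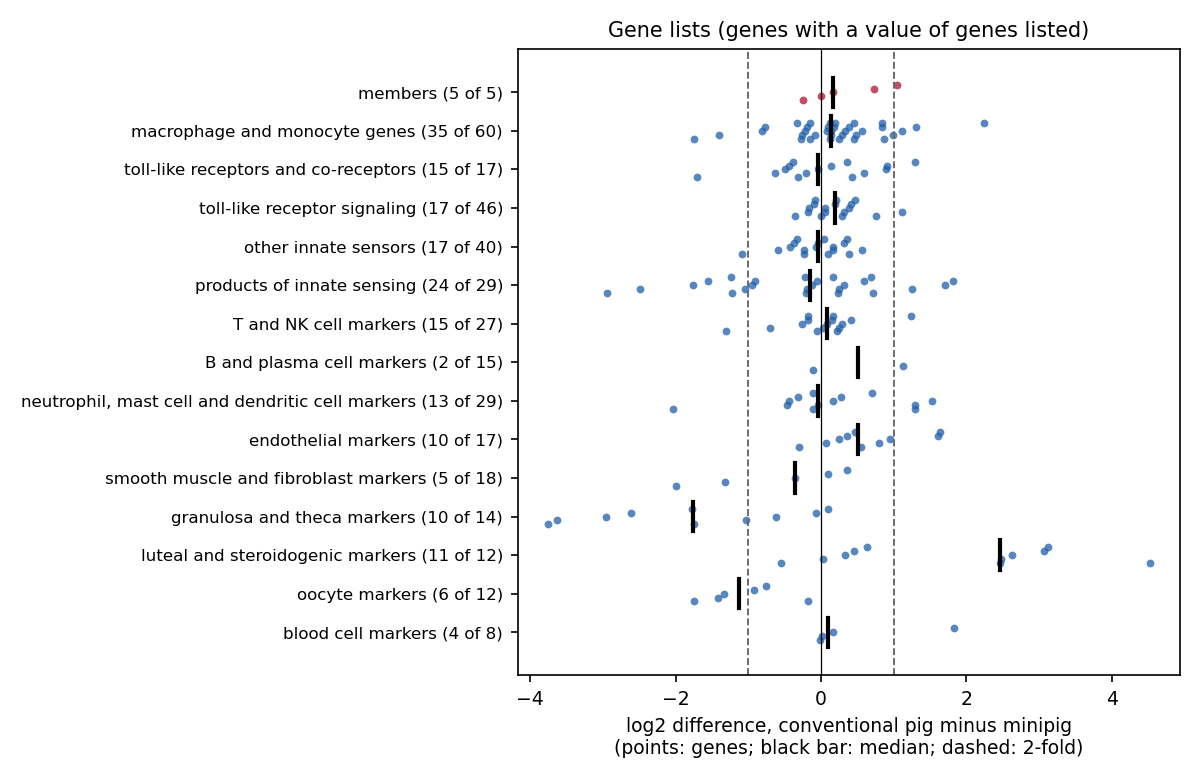
Log2 difference (conventional pig minus minipig) of each gene with a value, by list, with the list median as a black bar and 2-fold as dashed lines; the labels give how many genes of each list had a value. The 5 genes and the macrophage, receptor, signaling and sensor lists have medians between -0.05 and 0.20, while the luteal and the granulosa and theca lists stand at 2.46 and -1.76.

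In the authors' table of log2 values, which lists 5617 probes, only the brighter CD14 probe appears among the 13. It stands there at 1.08 in the column labelled minipig and -0.19 in the column labelled pig. By the labels of that table CD14 would be higher in the minipig.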

How the data were processed

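The authors scanned the arrays with Agilent Feature Extraction 10.7.3.1 and deposited the spot table, whose processed intensity has had background and a spatial trend removed, is not scaled between arrays and comes with an error from an error model. The authors also deposited log2 values for 5617 probes, which were used only as an alternative; the methods name Agilent GeneSpring and give no further normalization. No genome build is given for the array in the sources used here, so no coordinates are printed, and no probe or protein sequences were used here.

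Control spots and spots flagged as outliers (5 and 10) were left out, repeated spots were averaged on the log2 scale and the 75th percentile of each array was subtracted. Where a probe was well above background on 1 array only, the value is a bound set by the dimmest probe that passed this flag on the other array (10.6 on the minipig array, 11.5 on the conventional pig array), or by the probe's own intensity if higher. Probes of a gene were summarised by their median, with bounds. Accessions were matched without versions. Errors of a log2 difference combine the errors of the 2 spots.

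The 5 genes and 14 gene lists were chosen with earlier results of these data known, and 1 listed marker gene is not reported here. The rule for naming genes from a list took those at least 2-fold apart with a value for every probe, at most 3 in each direction. It also took the brightest on each array, which are not printed for every list. For toll-like receptors and co-receptors it took every gene with a value. S100A9, PGLYRP2, CD79A, TPM2, CYP19A1, LHCGR, FDX1, RLN2, OXT, NR5A1 and PRLR fall outside this rule. So do genes not well above background such as CD4, and those marked as chosen after their values were seen. No gene was named for a similar pattern, since 2 arrays give 1 difference per gene. Alternatives were normexp background correction (offset 50, on median in place of the planned mean spot signals where no mean was given), median centring, quantile and loess (span 0.3) normalization, keeping every dim probe, keeping only probes that passed the background flag on both arrays, the brightest probe of a gene, the authors' log2 table, and folds of 1.5 and 3. The steps were tested on simulated data. Normexp was run with limma 3.58.1 in R 4.3.3, loess with statsmodels 0.14.6, and all else with numpy 2.4.6 and pandas 2.3.3 in Python 3.11.15.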

Additional observations from a re-analysis of the deposited data

How the results depend on the processing

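By the scanner labels, the log2 differences of the 5 genes moved by less than 1 SD of repeated spots (0.25) under every alternative. CD14 ran from 0.80 to 1.27, AIF1 from 0.62 to 0.89, CD163 from -0.32 to -0.01, TLR2 from 0.05 to 0.32 and TLR4 from 0.00 to 0.21. CD14 sits at the 2-fold limit: normexp background correction left 0 of the 5 genes past 2-fold toward the conventional pig array, a limit of 1.5-fold gave 2 and a limit of 3-fold gave 0. Median centring shifted all probes by 0.15 toward the conventional pig array. With quantile and loess normalization the median shift over all probes was 0.14 each, but single probes moved differently. The brightest CD163 probe went the other way, from -0.01 to -0.27 with quantile and -0.22 with loess. Relative to the median of all named genes, CD14 was at 1.01 in the main setting and at 0.78 after normexp. Normexp lowered the share of features past 2-fold toward the minipig array to 3.63% of probes and 4.15% of named genes. It also moved the medians of the granulosa and theca (-1.48), luteal (2.004) and oocyte (-0.87) lists. The brightest probe of each gene gave 0.77 for the endothelial and 1.85 for the luteal list and quantile normalization -0.66 for the smooth muscle list; these causes were not tested. Normexp also took CASP8, CD247, EDN1, IL6, PPBP, PTGS2, S100A8 and the bound of SIGLEC1 under 2-fold, and quantile and loess took CD83 and XBP1; CD3G was under 2-fold with normexp, with the brightest probe and without bounds. The deposited log2 table gives a value only for CD14. Its columns were matched to the scanner files by value, so its 1.27 is the same measurement and not a separate check. By the labels of that table the direction of CD14 is the opposite. No paired analysis was possible because each breed has 1 array. Dim probes, such as the dimmest of TLR4 and that of TLR7, are limited by background.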
